A study of Mus musculus with 14 samples.

Results

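A cluster of 8 genes on mouse chromosome 12, described mostly as copies of the translation initiation factor eIF1A, was followed across 14 RNA-seq libraries of cumulus cells and early embryos. The members were Gm8300, Gm4027, Gm1995, Gm2016, Gm2022, Gm5662, Gm7104 and Gm5039, 8 of the 22495 gene symbols in the deposited table. They were found by symbol, each in 1 row, and lay between 88855266 and 89560206 on chromosome 12 of build mm9, a span of 704.9 kb. The rule that lists them does not state the values behind it. They were taken as chosen by their levels in these data: high at the 2-cell stage after in vitro fertilisation (IVF), and lower at the IVF 1-cell stage and at the 2-cell stage after somatic cell nuclear transfer (SCNT). Every comparison with the IVF 2-cell libraries is therefore given as a description, with no test. The SCNT 2-cell and IVF 1-cell libraries took part in that choice as well, and the comparisons tested below that use either share them with it. The Kdm4d comparisons may have been in view too, so their p-values are not independent evidence of the direction.

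The study compared IVF with SCNT, the making of an embryo from an enucleated oocyte and the nucleus of a somatic cell, under a title about an epigenetic barrier to reprogramming. The 7 groups had 2 libraries each: the cumulus cells used as donors, IVF and SCNT embryos at the 1-cell and at the 2-cell stage, and 2-cell SCNT embryos that overexpressed either Kdm4d or a mutant form of it. Kdm4d is a demethylase of lysine 9 of histone H3, and the sources used here give neither the mutation nor the way of overexpression. Each embryo library pooled 25 to 40 embryos, and each donor library about 1000 cells. IVF embryos came from C57BL/6J oocytes and CAST/EiJ sperm. All SCNT groups, overexpressing or not, had donor cells labelled (C57BL/6J x CAST/EiJ) F1 and B6D2F1 recipient oocytes, although the growth protocol names BDF1 females as the source of cumulus cells. Strain and the way the embryo was made cannot be told apart in any comparison of IVF with SCNT.

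As background, eIF1A binds the small ribosomal subunit, where it helps recruit the initiator tRNA complex, promotes scanning along the messenger RNA and takes part in the choice of the start codon. In mice Eif1ax and Eif1a encode this factor. The 2-cell stage is when the mouse embryo's own genome becomes broadly active, and families of multicopy genes are known for transient transcription at that stage. What the proteins of this cluster do in the embryo is not something these data measure.

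The name of the cluster was checked against the transcripts of the GENCODE annotation (build GRCm38), matched by symbol. The 6 members Gm8300, Gm4027, Gm2016, Gm2022, Gm5662 and Gm5039 each had a coding sequence of 435 bases, or 145 codons with the stop. Over the 15 pairs of these 6, the coding sequences were 97.0% to 99.1% identical, which is 4 to 13 differing bases. They were 93.6% to 94.9% identical to Eif1a and 83.7% to 85.1% identical to Eif1ax. The annotated transcripts of Gm1995 and Gm7104, single-exon pseudogenes of 2602 and 2532 bases, held no such stretch: their best local alignments with the coding sequence of Gm5662 covered 33 and 43 columns. Both models cover only part of the rows in the table, which span 4341 and 4204 bases, and the rest was not analysed here. RefSeq classes Gm5039 as a transcribed pseudogene and GENCODE as protein coding. The name thus held by sequence for 6 of the 8 genes, so the 8 are called the chromosome 12 cluster here.

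Bases 340 to 429 of the coding sequence were picked as the in-frame 90-base stretch that varies most among the 6 coding members. This stretch shows where the copies part, and elsewhere they are closer. It is printed for the 6 coding members and for Eif1ax, 5′ to 3′. It lies at chr12:87517236-87517325 (plus strand) for Gm8300, chr12:87621939-87622028 (plus) for Gm4027 and chr12:87876924-87877013 (plus) for Gm2016. It lies at chr12:87895709-87895798 (plus) for Gm2022, chr12:88271560-88271649 (minus) for Gm5662, chr12:88321053-88321142 (minus) for Gm5039 and chrX:159382690-159382779 (plus) for Eif1ax, all in GRCm38. Capitals mark the bases that differ from the commonest base among the 6 members.
Gm8300: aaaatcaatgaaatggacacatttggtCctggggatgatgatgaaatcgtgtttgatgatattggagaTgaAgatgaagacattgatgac
Gm4027: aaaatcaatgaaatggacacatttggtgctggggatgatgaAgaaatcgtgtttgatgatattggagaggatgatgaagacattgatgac
Gm2016: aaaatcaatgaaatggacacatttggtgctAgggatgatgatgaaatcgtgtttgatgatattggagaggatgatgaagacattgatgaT
Gm2022: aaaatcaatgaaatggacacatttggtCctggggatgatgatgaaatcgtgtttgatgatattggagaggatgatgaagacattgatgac
Gm5662: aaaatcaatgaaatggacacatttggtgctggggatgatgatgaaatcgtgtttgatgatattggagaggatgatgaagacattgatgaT
Gm5039: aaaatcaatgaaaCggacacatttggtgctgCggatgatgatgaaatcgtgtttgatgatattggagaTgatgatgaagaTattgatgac
Eif1ax: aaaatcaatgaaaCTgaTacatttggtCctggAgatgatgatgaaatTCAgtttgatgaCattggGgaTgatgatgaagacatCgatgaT
In this stretch 9 of the 90 positions varied among the 6 members, of 22 in the whole coding sequence. Gm5662, Gm4027 and Gm2022 each had 1 base apart from the majority and Gm5039 had 4, while Eif1ax had 13.

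Such closeness bears on every level below, because the reads were 50 bases long and the sources used here do not say how reads with several matching places were treated. The share of a transcript's 50-base stretches found exactly in another gene was 94.4% for Gm4027, 81.3% for Gm2016 and 77.9% for Gm5662. It was 44.3% for Gm1995, 44.1% for Gm7104, 26.6% for Gm8300 and 17.3% for Gm5039. For Gm2022 it was 97.2%, but its GENCODE transcript holds the coding sequence alone, 435 bases against 3889 in the table's row, so that share cannot be ranked with the others. Gm2016 and Gm5662 shared mostly with each other, at 75.2% of the stretches of Gm2016 and 72.1% of those of Gm5662. Gm1995 and Gm7104 formed a pair of their own, at 41.0% and 42.1%, and their annotated transcripts shared nothing with the coding members. Those transcripts too cover only part of the rows in the table, so their shares hold for that part alone. All 1700 shared stretches of Gm4027 were also found in BB287469, a neighbouring gene of 97.7% identity to Gm5662 in its coding sequence, and a second row of BB287469 in the table overlaps that of Gm4027. How reads were divided among the copies is thus uncertain for every member. A search of the annotation for genes at least 90% identical to Gm5662 found 19, of which 18 lay on chromosome 12 and 7 of those 18 had a row in the table. The other 11 copies on chromosome 12 were not analysed here.

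**Figure D1:**
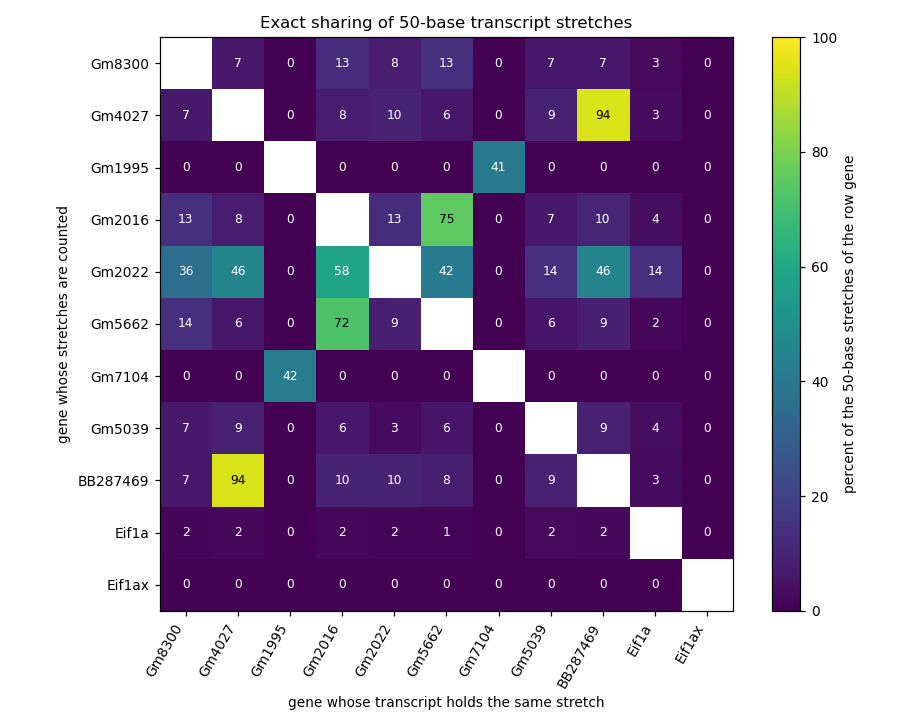
Heat map of exactly shared 50-base transcript stretches: each cell gives the percent of the stretches of the gene on the vertical axis that also occur in the gene on the horizontal axis (colour from 0 to 100). Gm2016 and Gm5662, Gm4027 and BB287469, and Gm1995 and Gm7104 stand out as pairs, and Eif1ax shares none.

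Only Gm4027 of the 8 genes had a promoter in the RefSeq-based table used. Its 210 bases before the start, at chr12:87618659-87618868 of GRCm38.p6 (plus strand), are shown because the members moved together, with the matches to 3 short motifs in capitals.
Gm4027 promoter: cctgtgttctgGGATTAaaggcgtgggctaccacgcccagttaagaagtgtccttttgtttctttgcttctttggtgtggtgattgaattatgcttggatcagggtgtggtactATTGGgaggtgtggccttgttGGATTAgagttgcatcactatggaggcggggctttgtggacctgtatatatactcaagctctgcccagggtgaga
The motifs were searched on both strands. GGATTA occurred at 2 places here and in 5.4% of 32851 promoters of the same length. CCAAT occurred at 1 place, on the reverse strand, and in 29.9% of promoters. TATAAA was not found in these letters and was found in 9.6% of promoters. Only exact matches were searched, so variants such as the tatatata near the end of the printed promoter were not counted. No 2 of the matches overlapped.

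Facts of the whole series that touch these values were as follows. Levels are FPKM, fragment numbers divided by transcript length and by the library's mapped fragments. They summed to between 182952 and 345441 over the genes of a library. Read counts are not given in the files, but the steps between low values gave depths relative to the first IVF 1-cell library of 0.416 to 0.509 for the Kdm4d libraries and 0.462 to 0.498 for the mutant ones. SCNT 2-cell libraries had 0.815 and 0.868, and all other embryo libraries 0.776 or more. Kdm4d itself was below 1 FPKM in each library that was not overexpressing, at 8879 and 2255 in the Kdm4d libraries and at 723 and 283 in the mutant ones. Of 15 cumulus and granulosa markers, 11 reached a mean of 5 FPKM in donor cells and none in IVF 1-cell embryos, and 10 oocyte markers summed to 2.08 and 2.57 FPKM in donor cells. The labels do not say that the libraries of a group came from separate experiments, so p-values measure only the spread between these libraries, which may be technical. In pooled embryos, fewer embryos with a transcript and less of it per embryo cannot be told apart.

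The cluster was nearly silent outside the 2-cell stage. The levels of the 8 genes summed to 1.36 ± 0.0107 FPKM (SD, n = 2) in donor cells. At the 1-cell stage it was 3.63 ± 0.101 after IVF and 5.43 ± 0.0984 after SCNT. The sum was 228.2 ± 3.22 in IVF 2-cell embryos, and every member reached 1 FPKM in both libraries there. In SCNT 2-cell embryos it was 30.7 ± 1.28, which is 13.5% of the IVF 2-cell mean. It was 118.4 ± 46.0 in Kdm4d embryos, or 51.9%, and 8.98 ± 7.92 in mutant Kdm4d embryos, or 3.94%. The libraries of the last 2 groups were far apart, with sums of 150.9 and 85.9 for Kdm4d and of 3.39 and 14.6 for the mutant, yet no library of one group reached into the other.

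The members differed in how far they followed that order. Gm8300, the first gene of the cluster, was listed at 61.4 and 64.6 FPKM in the IVF 2-cell libraries and at 6.21 and 6.05 in the SCNT 2-cell libraries. Its Kdm4d libraries were at 32.4 and 16.03 and its mutant libraries at 0.215 and 2.82. The 4 groups did not overlap, and the libraries of each overexpressing group differed from each other far more than those of IVF or SCNT embryos did. Before the 2-cell stage Gm8300 was at 0.496 and 0.724 after IVF and at 1.90 and 1.54 after SCNT.

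Gm5662, a coding copy at the far end of the cluster, was at 44.9 and 46.8 FPKM in IVF 2-cell libraries. It kept the largest share of that level in SCNT 2-cell embryos, 23.6%, at 11.5 and 10.1. Kdm4d libraries were at 38.9 and 18.2 and mutant libraries at 1.68 and 5.20. The first Kdm4d library came near the IVF libraries and the second stayed closer to plain SCNT, without overlap with either. Gm2016, the copy that shares most of its sequence with Gm5662, measured 36.4 and 41.5 in IVF, 7.22 and 7.22 in SCNT, 23.3 and 17.6 in Kdm4d and 0.662 and 2.06 in mutant libraries. All 4 groups were again separate.

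Gm5039, annotated as coding or as a pseudogene depending on the source, was at 35.4 and 30.4 FPKM in IVF 2-cell and 4.07 and 3.62 in SCNT 2-cell libraries. It was at 29.4 and 13.6 in Kdm4d and 0.360 and 2.60 in mutant libraries. It differed from the other 7 in being at 1 FPKM or more in donor cells too, at 1.30 and 1.18, and at 1.33 to 1.90 in all 1-cell libraries, so that the mutant libraries, at a mean of 1.48, overlapped the 1-cell ones.

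Gm2022 and Gm4027, both coding copies, were at the smallest shares of their IVF level at the SCNT 2-cell stage. Gm2022 was at 19.1 and 20.5 FPKM in IVF 2-cell libraries and at 0.335 and 0.183 in SCNT 2-cell libraries, 1.31% of the IVF mean. That was no higher than its 0.330 and 0.370 in SCNT 1-cell embryos. Kdm4d libraries were at 9.26 and 3.23 and mutant libraries at 0.0246 and 0.160. Gm4027 was at 4.96 and 6.44 in IVF 2-cell and 2.37 and 1.39 in Kdm4d libraries. In SCNT 2-cell libraries it was listed at 0.000165 and 0.0797, in mutant libraries at 0 and 0.0931, and in both SCNT 1-cell libraries at 0. One read in its transcript would be worth between 0.0114 and 0.0254 FPKM, so the value of 0.000165, like that of 0.000144 in an IVF 1-cell library, is below 1 read.

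The pseudogene pair behaved differently within itself. Gm1995 was at 20.8 and 17.5 FPKM in IVF 2-cell libraries and 1.93 and 1.91 in plain SCNT ones. With Kdm4d it was at 13.3 and 13.8, and with the mutant at 0.269 and 1.14. Its Kdm4d libraries lay close together, unlike those of most members. Gm7104 was the weakest gene of the cluster, at 2.91 and 2.64 in IVF 2-cell libraries. Its 1-cell levels were 0.713 and 0.673 after IVF and 0.825 and 0.879 after SCNT, the latter above its SCNT 2-cell levels. Both Kdm4d libraries were at 2.05, while SCNT 2-cell libraries were at 0.373 and 0.613 and mutant libraries at 0.179 and 0.518, which overlapped.

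**Figure D2:**
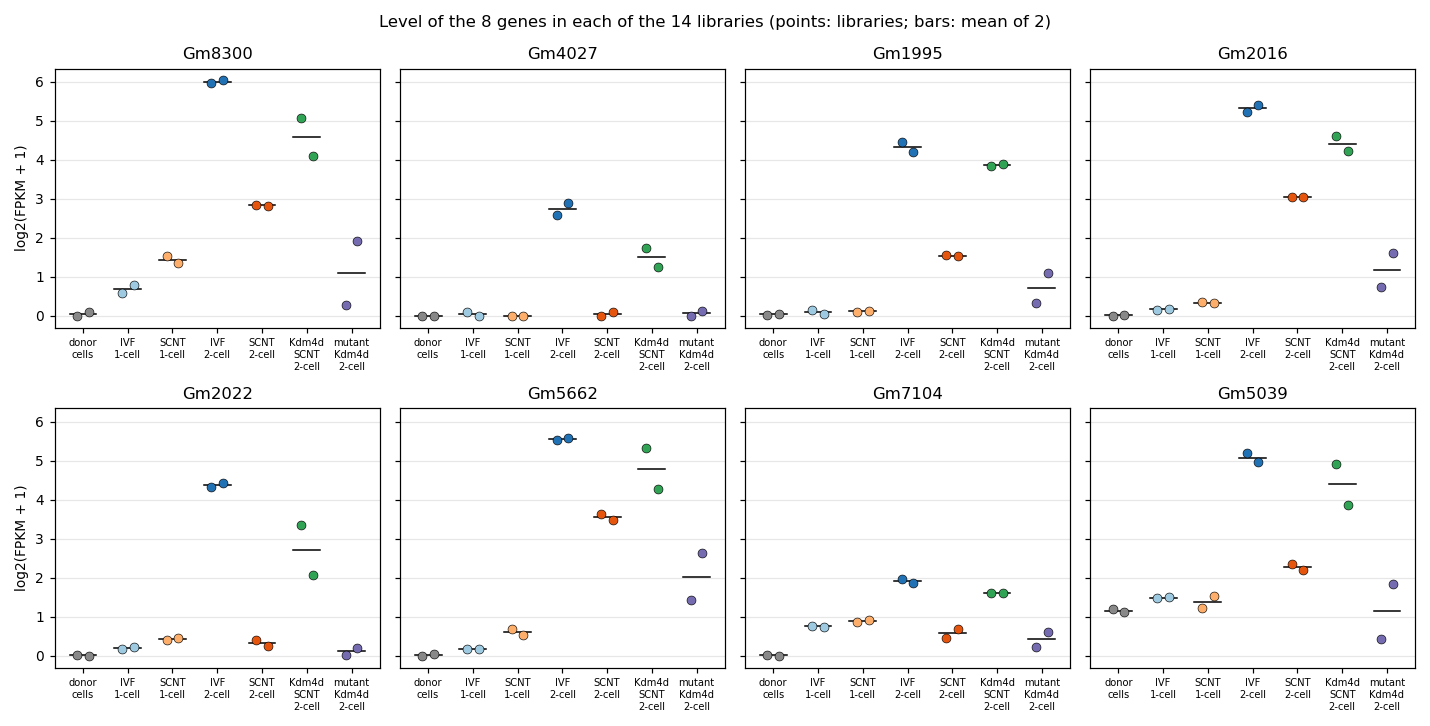
Levels of the 8 genes in all 14 libraries as log2(FPKM + 1), by group; points are libraries and bars the mean of 2. IVF 2-cell points are the highest in each panel, Kdm4d points lie between them and plain SCNT, and mutant points lie below plain SCNT except in Gm4027 and Gm7104, where they overlap.

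In IVF 2-cell embryos the order of the mean levels was Gm8300, Gm5662, Gm2016, Gm5039, Gm2022, Gm1995, Gm4027 and Gm7104. Of the neighbours in that order, only Gm2022 and Gm1995 had overlapping libraries. The make-up of the summed level shifted between groups: Gm5662 gave 20.1% of it after IVF and 35.2% after SCNT, and Gm2022 gave 8.69% and 0.844%. In Kdm4d embryos these shares were 24.1% and 5.27%. Level and position along the chromosome did not follow one another, since Gm5662, Gm7104 and Gm5039 lay next to one another and ran from among the highest to the lowest. Over the 28 pairs of members, Pearson's r of log2(FPKM + 1) was 0.779 to 0.991 over the 14 libraries, with a median of 0.923. Over the 8 libraries of 2-cell embryos it was 0.879 to 0.993. These are descriptions, since the genes share libraries, sequence and the values they were chosen by.

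**Figure D3:**
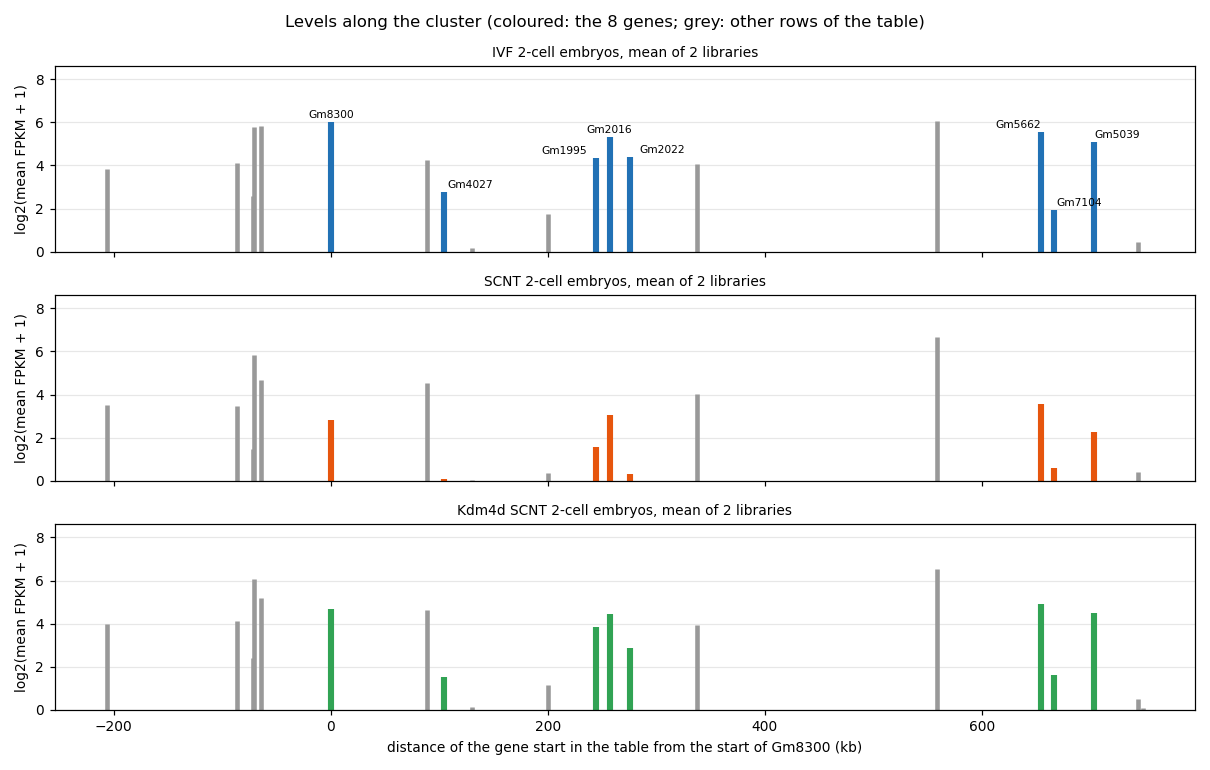
Mean levels as log2(FPKM + 1) along the cluster in IVF, SCNT and Kdm4d SCNT 2-cell embryos (2 libraries each), against the distance of each gene's start from that of Gm8300 in kb. The 8 genes are coloured and other rows of the table grey; the coloured bars are shorter in SCNT than in IVF embryos and of intermediate height with Kdm4d.

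Set against IVF 2-cell embryos, all 8 genes were lower in both SCNT 2-cell libraries and lower in both Kdm4d libraries. SCNT 2-cell means ran from 0.701% of the IVF mean for Gm4027 through 9.73% for Gm8300, 10.03% for Gm1995, 11.7% for Gm5039, 17.8% for Gm7104 and 18.6% for Gm2016 to the 23.6% of Gm5662. Kdm4d means were at 31.5% for Gm2022, 33.0% for Gm4027, 38.4% for Gm8300, 52.5% for Gm2016, 62.3% for Gm5662, 65.2% for Gm5039, 70.7% for Gm1995 and 74.0% for Gm7104. The genes that were lowest in SCNT embryos, Gm4027 and Gm2022, also stood lowest with Kdm4d. Mutant means did not exceed the 12.6% of Gm7104.

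**Figure D4:**
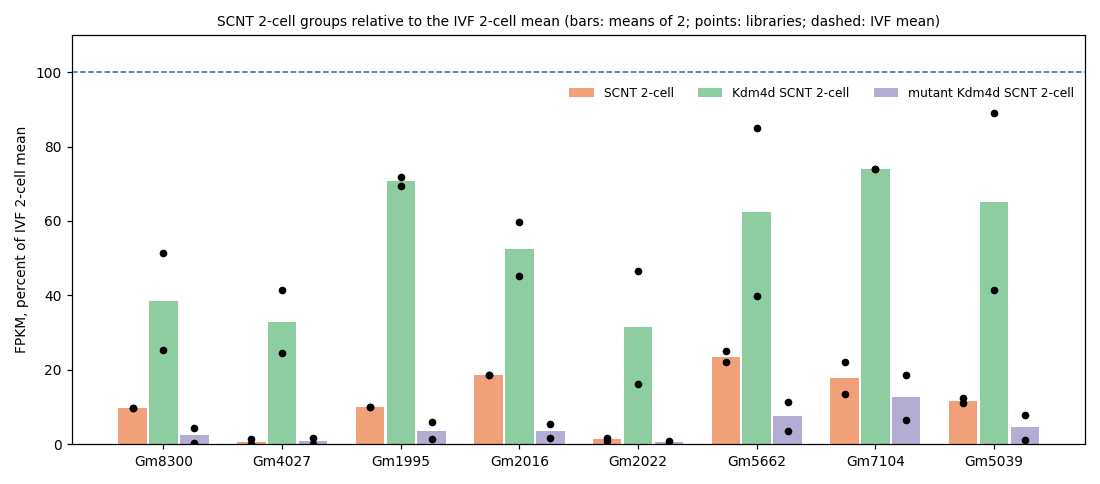
FPKM of each gene in SCNT, Kdm4d SCNT and mutant Kdm4d SCNT 2-cell embryos as percent of its IVF 2-cell mean (dashed line); bars are means of 2 libraries and points the libraries. Kdm4d bars run from 31.5% for Gm2022 to 74.0% for Gm7104, and the points of Gm5662 and Gm5039 are spread widest.

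The first tested comparison asked how the cluster differed between SCNT 2-cell embryos with and without overexpressed Kdm4d. For each of the 8 genes both Kdm4d libraries lay above both plain SCNT libraries, and the share of all genes so separated was not counted. In the fit across all genes, 21% of the 13455 genes tested were called higher and 18.5% lower. Gm4027, Gm2022 and Gm7104 passed the filter on low values only through their IVF 2-cell and Kdm4d libraries, so a difference involving Kdm4d was partly built into the filter for them. The other 5 were all called higher. On the log2(FPKM + 1) scale, which understates changes of low genes, Gm1995 rose by 2.31 ± 0.22 (SE, adjusted p = 2.2e-05), Gm5039 by 2.12 ± 0.40 (0.0015) and Gm8300 by 1.74 ± 0.43 (0.007). Gm2016 rose by 1.37 ± 0.25 (0.0013) and Gm5662 by 1.23 ± 0.37 (0.019). The 3 genes that the filter favoured were called higher too, with differences of 2.39 ± 0.30 for Gm2022, 1.45 ± 0.17 for Gm4027 and 1.04 ± 0.15 for Gm7104, given here as a description. The median of the 8 was 1.60, beside -0.022 for all genes, and is a description for the same reason. In FPKM the means were 3.95 times higher for Gm8300, 7.05 times for Gm1995, 2.83 times for Gm2016, 2.65 times for Gm5662, 4.16 times for Gm7104 and 5.59 times for Gm5039. The ratios were larger for Gm2022, 24.09, and Gm4027, 47.05, but they rest on plain SCNT means of only 0.259 and 0.03995 FPKM.

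Other transcripts also differed between these groups. The 10 oocyte markers summed to 2802 and 2091 FPKM in Kdm4d and to 1004 and 1160 in plain SCNT libraries, with none at 0. The 15 cumulus and granulosa markers summed to 129.9 and 188.8 against 71.1 and 65.1, with 4 and 3 of them averaging 5 FPKM or above. Gja1, a gap junction gene, made up most of the Kdm4d sum, at a mean of 126.6 FPKM. The markers Amh, Foxl2 and Fshr were listed at 0 in both Kdm4d libraries. Their part in the difference was not tested.

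The calls of Gm5662 and Gm8300 were the least secure. Without the first Kdm4d library, where 7 of the 8 genes were higher than in the second, Gm5662 was at 0.71 (adjusted p = 0.16) and Gm8300 at 1.26 (adjusted p = 0.062), and 6 genes were called. Gm5662 also lost its call without the first SCNT 2-cell library (adjusted p = 0.06) and without the second (adjusted p = 0.094). It was not called either with no filter (adjusted p = 0.064), with quantile normalization (0.061) or in a fit to these 4 libraries alone (0.07), and Gm8300 was not called with a pseudocount of 0.1 (0.07). With the FPKM of each library scaled to an equal sum, the median of all genes moved to -0.47 and 1157 genes were called higher and 6046 lower, in place of 2827 and 2489. The members' median was then 1.70 above that of all genes, in place of 1.62. Called higher were 6, without Gm5662 and Gm8300 and with the genes that the filter favoured.

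Embryos with the mutant Kdm4d were set against plain SCNT 2-cell embryos in the same way, and share the plain SCNT libraries as controls with the preceding comparison. None of the 8 genes was called higher in mutant than in plain SCNT 2-cell embryos, where 11.3% of all genes were. Called lower were 4, beside 6.4% of all genes: Gm2016, which fell by 1.87 ± 0.25 on the log2(FPKM + 1) scale (adjusted p = 0.0015), Gm8300, which fell by 1.73 ± 0.43 (0.018), Gm5662, which fell by 1.53 ± 0.37 (0.016), and Gm1995, which fell by 0.83 ± 0.22 (0.026). Not called were Gm5039 at -1.13 ± 0.40 (0.071), Gm2022 at -0.21 ± 0.30 (0.68), Gm7104 at -0.15 ± 0.15 (0.53) and Gm4027 at 0.01 ± 0.17 (0.98), of which all but Gm5039 were already under 1 FPKM in SCNT 2-cell embryos. In 6 of the 8, all but Gm4027 and Gm7104, both mutant libraries lay below both SCNT libraries. How many of all genes were separated in this way was not counted. The median of the 8 was -0.98, beside 0.009 for all genes.

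These calls rested on few libraries. Only Gm2016 was still called without the first SCNT 2-cell library, without the second, or without the first mutant library. In a fit to the 4 libraries of these groups alone no gene of the whole table was called, and 4 members had an unadjusted p under 0.05. How many of all genes had one was not counted. With no filter on low values 2 were called, Gm1995 and Gm2016. Gm1995 was not called with a pseudocount of 5 (adjusted p = 0.06) or with group weights (0.11). With equal sums, the all-gene median moved to -0.31 and 649 genes were called higher and 3336 lower, in place of 1515 and 861, and 5 members were lower. With quantile normalization 1322 genes were higher and 1394 lower, and again 5 members were lower.

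The mutant libraries also differed from each other, and other transcripts moved with that difference. All 8 genes were lower in the first mutant library than in the second. The 10 oocyte markers, all measured, summed to 5069 FPKM in the first and 2486 in the second, against 1004 and 1160 in plain SCNT, 2802 and 2091 in Kdm4d and 1715 and 1761 in IVF 2-cell libraries. In each embryo group 8 or more of the 10 averaged 5 FPKM or above. In 1-cell embryos the sum was 6730 to 8738. The part of these oocyte transcripts in the results for the mutant was not tested.

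Compared directly, Kdm4d and mutant Kdm4d embryos shared no library, and all 8 genes were higher with Kdm4d, with no overlap between the groups for any. The share of all genes without such overlap was not counted. Over all genes, 21.4% were called higher and 22.5% lower in this comparison. The 8 include the 3 genes favoured by the filter, whose differences are again descriptions. The differences on the log2(FPKM + 1) scale were 3.47 ± 0.43 for Gm8300 (SE, adjusted p = 0.00012), 3.25 ± 0.40 for Gm5039 (0.00012), 3.24 ± 0.25 for Gm2016 (1.1e-05) and 3.14 ± 0.22 for Gm1995 (5.9e-06). The difference was 2.77 ± 0.37 for Gm5662 (0.00017), and without a test 2.59 ± 0.30 for Gm2022, 1.44 ± 0.17 for Gm4027 and 1.19 ± 0.15 for Gm7104. Their median was 2.95, beside -0.095 for all genes. With any 1 library of the 2 groups left out, the median of the 8, a description, ran from 2.48 to 3.44. The genes not favoured by the filter lost their calls in a fit to these 4 libraries alone, where limma called no gene of the whole table. Their adjusted p there ran from 0.062 to 0.067, and each had an unadjusted p under 0.05. The share of all genes with such an unadjusted p was not counted. With equal sums 2117 genes were called higher and 3956 lower, in place of 2875 and 3024. The members not favoured by the filter were still called higher. Beside this difference, Kdm4d RNA itself was higher in the Kdm4d than in the mutant libraries, by 3.30 ± 0.52 (adjusted p = 0.00048), so the mutation and the amount of RNA cannot be told apart. Cumulus and granulosa markers summed to 95.4 and 73.5 FPKM in the mutant libraries, with Foxl2 and Hsd3b1 listed at 0 in both, and their part was not tested either.

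**Figure D5:**
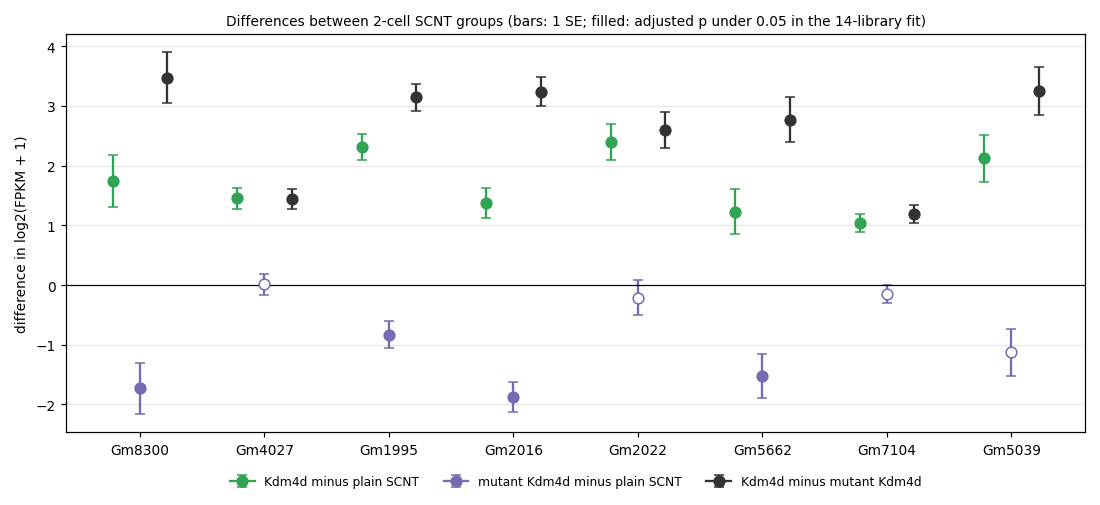
Differences in log2(FPKM + 1) of the 8 genes between the SCNT 2-cell groups, with 1 SE from the fit to 14 libraries; filled points had an adjusted p under 0.05. Kdm4d minus plain SCNT and Kdm4d minus mutant lie above 0 for all 8, and mutant minus plain SCNT lies below 0 and is filled for 4.

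In plain SCNT embryos part of the cluster rose between the 1-cell and the 2-cell stage. Gm5662 rose by 2.94 ± 0.37 on the log2(FPKM + 1) scale (adjusted p = 2.3e-05), Gm2016 by 2.70 ± 0.25 (2.3e-06), Gm1995 by 1.42 ± 0.22 (0.00013) and Gm8300 by 1.39 ± 0.43 (0.012). That is 4 of 8 higher and 0 lower, where 35.5% of all genes were called higher and 31.5% lower. Of these 4, Gm5662, Gm2016 and Gm1995 reached 1 FPKM in both libraries of a group only at the 2-cell stage. A rise with stage was thus partly built into the filter for them, and their p-values are not independent evidence of it. Gm5039 was at 0.90 ± 0.40 (0.065), Gm4027 at 0.06 ± 0.17 (0.79), Gm2022 at -0.10 ± 0.30 (0.78) and Gm7104 at -0.32 ± 0.15 (0.091). The same stage difference in IVF embryos, a contrast the members were chosen by, was 5.38 for Gm5662, 4.18 for Gm2022 and 1.16 for Gm7104. The call of Gm8300 was lost without the first SCNT 2-cell library (adjusted p = 0.053), without the second SCNT 1-cell library (adjusted p = 0.062) and with a pseudocount of 0.1 (adjusted p = 0.054). With equal sums the all-gene median was 0.57, 6967 genes were called higher and 2315 lower, in place of 4772 and 4243, and 5 members were higher, Gm5039 among them.

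At the 1-cell stage no member was called in SCNT against IVF embryos, where 1.34% of all genes were called higher and 0.974% lower. None of the 8 had an unadjusted p under 0.05, and the share of all genes with one was not counted. The largest difference was that of Gm8300, 0.76 ± 0.43 on the log2(FPKM + 1) scale (adjusted p = 0.45 in limma), whose SCNT libraries both lay above the IVF ones. Gm5662 was at 0.45 ± 0.37 (adjusted p = 0.64), with 0.617 and 0.451 FPKM against 0.124 and 0.121. In a fit to these 4 libraries alone 3 members were called higher, Gm8300, Gm2022 and Gm5662. Over all genes that fit called 1611 higher and 1167 lower, in place of 180 and 131. Cumulus and granulosa markers summed to 58.2 and 78.8 FPKM in SCNT 1-cell and to 1.59 and 2.18 in IVF 1-cell libraries. In donor cells Gm8300 and Gm5662 were no higher than 0.0752 FPKM. The part of donor cell transcripts in the 1-cell values was not tested.

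The parent family and the partners of eIF1A were set beside the cluster through a list of 24 genes named for the 43S pre-initiation complex, all tested. The list also holds Eif5b and Eif1ad, so its counts are not of that complex alone. In Kdm4d against plain SCNT embryos 15 were higher and 0 lower, with a median log2 difference of 0.73, and in Kdm4d against mutant 14 were higher and 0 lower, with a median of 0.57; all-gene shares were 21% and 18.5%, and 21.4% and 22.5%. In mutant against plain SCNT 4 were higher and 4 lower, with a median of 0.09, and between the SCNT stages 12 were higher and 7 lower, with a median of 0.47. The all-gene shares there were 11.3% and 6.4%, and 35.5% and 31.5%. None of the 24 was called between the 1-cell groups by limma, beside 1.34% of all genes higher and 0.974% lower. An unadjusted p under 0.05 was found for 7 of them, and the share of all genes with one was not counted.

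Eif1a, the autosomal eIF1A gene, was also low at the 1-cell stage and high at the 2-cell stage. It was at 0.646 and 0.533 FPKM in IVF 1-cell and 2.91 and 1.47 in SCNT 1-cell libraries, and at 31.5 and 28.8 in IVF 2-cell and 21.1 and 25.6 in SCNT 2-cell libraries. It rose between the SCNT stages by 2.96 ± 0.34 on the log2(FPKM + 1) scale (adjusted p = 1.3e-05). Unlike the members, it was at 48.9 ± 3.11 FPKM (SD, n = 2) in donor cells, and it was not called in Kdm4d against plain SCNT, at 0.31 ± 0.34 (SE, adjusted p = 0.52), with Kdm4d libraries at 17.7 and 46.9. Whether its response differed from that of the members was not tested.

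Eif1ax, the X-linked eIF1A gene, took the opposite course with stage. It was at 80.6 and 71.0 FPKM in SCNT 1-cell and 15.0 and 15.4 in SCNT 2-cell libraries, and fell by 2.24 ± 0.26 on the log2(FPKM + 1) scale (adjusted p = 1.3e-05). It was higher than in plain SCNT both with Kdm4d, by 1.95 ± 0.26 (adjusted p = 0.00016), and with the mutant, by 1.45 ± 0.26 (adjusted p = 0.0048). Eif5, which triggers GTP hydrolysis in the scanning complex, was at 124.5 ± 4.30 FPKM (SD, n = 2) in SCNT 2-cell and 153.5 ± 32.4 in Kdm4d embryos and was not called (adjusted p = 0.16). Eif5b, which joins the ribosomal subunits and binds eIF1A, was at 51.8 ± 2.44 in SCNT 2-cell embryos. It was lower in mutant than in plain SCNT embryos, by 0.47 ± 0.14 on the log2 scale (adjusted p = 0.041), and higher in Kdm4d than in mutant embryos, by 0.75 ± 0.14 (adjusted p = 0.0016).

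A list of 28 other 2-cell transcripts, such as the Zscan4, Tdpoz and Trim43 genes, had 25 genes in the table and 23 tested. It was written with earlier results of these data known, so its counts are not independent evidence. Of the 23 tested, 20 were higher and 0 lower in Kdm4d against plain SCNT embryos, beside 21% and 18.5% of all genes. Their median log2 difference was 1.70, close to the 1.60 of the cluster, which includes the genes favoured by the filter. In Kdm4d against mutant embryos 20 were higher and 0 lower, beside 21.4% and 22.5% of all genes, with a median of 2.13. In mutant against plain SCNT 1 was higher and 2 were lower, beside 11.3% and 6.4% of all genes. The median was -0.18, where the cluster had 4 lower and a median of -0.98. Between the SCNT stages 12 were higher and 2 lower, beside 35.5% and 31.5% of all genes, with a median of 1.04.

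The genes most like the cluster were sought among 8946 genes that averaged 5 FPKM or above in some group, by Pearson's r with the members' mean over the 14 libraries. The first 6 were BC080695 (r = 0.988), Ifng (0.987), which encodes interferon gamma, Topors (0.987), a ubiquitin and SUMO ligase, Pld6 (0.987), a mitochondrial phospholipase D family enzyme, Gm13109 (0.987) and Rfpl4b (0.986). Rfpl4b was the most abundant of them, and its IVF 2-cell mean was 261.4 ± 11.4 FPKM (SD, n = 2). The mean was 6.84 ± 1.60 in plain SCNT, 105.6 ± 41.9 with Kdm4d and 4.58 ± 6.01 with the mutant. As in the cluster, its mutant libraries were far apart, at 0.327 and 8.83. Topors differed in being present throughout, at 10.4 ± 0.825 FPKM in donor cells and 132.1 ± 9.69 in IVF 2-cell embryos. These genes were picked on all 14 libraries, so their values only describe the likeness and are not tested.

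The neighbourhood did not follow the cluster as a whole. Of 29 other rows of chromosome 12 from Tmed8 to 1700019M22Rik, 18 had a group mean of at least 1 FPKM. The members all had IVF 2-cell libraries above those of IVF 1-cell and SCNT 2-cell embryos and Kdm4d libraries above mutant ones. The first of these conditions is part of how they were chosen. Of the 29 rows, 4 had this order, those of Alkbh1, Gm16381, BB287469 and 1700019M22Rik. Of all genes tested, which had passed the filter on low values, 15.1% had it. The 29 rows were not filtered, and Gm16381 was too low to be tested, so the shares are of unlike sets. The 3 most abundant neighbours in IVF 2-cell embryos were 1700019M22Rik, Gtf2a1, which encodes a subunit of the transcription factor TFIIA, and Ahsa1, an activator of the chaperone Hsp90. Ahsa1 was higher than in plain SCNT both with Kdm4d, by 1.44 ± 0.16 on the log2(FPKM + 1) scale (SE, adjusted p = 5.6e-05), and with the mutant, by 1.18 ± 0.16 (adjusted p = 0.0016). Gtf2a1 was called in neither, at 0.41 ± 0.16 (adjusted p = 0.063) and 0.22 ± 0.16 (adjusted p = 0.39). Both fell between the SCNT stages, Ahsa1 by 2.08 ± 0.16 and Gtf2a1 by 1.42 ± 0.16.

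1700019M22Rik, at 97284829 to 97285432, far from the other genes, averaged 128.0 ± 4.12 FPKM (SD, n = 2) at the IVF 2-cell stage. It averaged 13.9 ± 4.32 in plain SCNT, 53.2 ± 11.1 with Kdm4d and 3.37 ± 2.66 with the mutant. It was higher in Kdm4d than in plain SCNT embryos by 1.88 ± 0.37 on the log2(FPKM + 1) scale (SE, adjusted p = 0.0019). BB287469, the near copy of Gm4027, was at 2.34 ± 0.1004 FPKM after IVF and 0.289 ± 0.0987 after SCNT at the 2-cell stage, and was higher with Kdm4d by 0.74 ± 0.20 (adjusted p = 0.011). Oog1 and Gm10436, which lie between members of the cluster, went the other way; both were singled out after their values were seen. Oog1, an oocyte transcript, fell with stage, from 118.5 ± 0.681 FPKM in IVF 1-cell to 33.9 ± 1.67 in IVF 2-cell embryos, and Gm10436 from 266.2 ± 2.20 to 65.2 ± 1.84. In mutant against plain SCNT embryos, Oog1 was higher by 1.03 ± 0.26 (adjusted p = 0.02) and Gm10436 by 1.04 ± 0.20 (adjusted p = 0.007). With Kdm4d neither was called against plain SCNT.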

How the data were processed

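Gene expression was measured by RNA-seq in 14 libraries. Per the labels' protocols, cDNA was made from lysates with a SMARTer Ultra Low Input kit and sheared by Covaris before NEBNext Ultra libraries were prepared; 50 bases were read from 1 end. Per the submitters' processing notes, Novoalign (version not given) and Cufflinks 2.0.2 were used on build mm9. The table the authors deposited holds FPKM in 23697 rows. The sources used here do not give the handling of multiply mapping reads, the annotation or the use of strand. Starts in the table count from 0, so 1 was added.

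From it, 802 short-RNA rows were left out and 630 rows with repeated symbols were added up, which left 22495 symbols. Those reaching 1 FPKM in 2 or more libraries, 13455, were tested as log2(FPKM + 1), unscaled, in 1 model of the 7 group means over all 14 libraries. Each gene had 1 residual spread for all groups. limma 3.58.1 (R 4.3.3, intensity trend, 7 residual and a median of 4.71 prior degrees of freedom) gave SEs and p-values, two-sided and adjusted by Benjamini and Hochberg within each of 5 comparisons at 0.05. The script was tested on simulated data.

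All 8 members were tested and all are named; also named are the 6 genes most alike, the 3 most abundant neighbours, Eif1a, Eif1ax, Eif5, Eif5b and Kdm4d. The members and lists (43S complex, other 2-cell transcripts, cumulus and oocyte markers) were chosen with earlier results of these data known. Sequences came from RefSeq and GENCODE tables on GRCm38, compared with Biopython 1.88; proteins were not used here. The planned choice of eIF1A-like genes by protein was replaced by one on coding sequence, at 90% identity. Alternatives tried were pseudocounts of 0.1 and 5, no filter, quantile normalization, equal sums, only the groups compared, group weights, a replicate block, the highest row of a symbol, and each library left out.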

Additional observations from a re-analysis of the deposited data

Results flagged for a closer look

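Gm7104 was singled out because its libraries did not overlap between the stages in either kind of embryo and moved opposite ways. On the log2(FPKM + 1) scale the change from the 1-cell to the 2-cell stage was -0.32 in SCNT embryos, not called (adjusted p = 0.091 in limma) and -0.01 with equal sums, and 1.16 in IVF embryos. The difference between these changes was not tested, because the members were chosen by the IVF contrast. Gm2022 also had opposite signs, at -0.10 and 4.18, but its SCNT libraries overlapped between the stages.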

How the results depend on the processing

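Of the 520 values of single members under the alternatives, 459 kept their direction and side of the threshold, 38 lost a call, 13 gained one and 10 changed sign, none of these called in either fit. With equal sums Gm4027 went to -0.01 in mutant against plain SCNT embryos and Gm2022 to 0.08 between the SCNT stages. With quantile normalization Gm1995 went to -0.15, Gm2016 to -0.01 and Gm7104 to -0.08 in SCNT against IVF 1-cell embryos. When single libraries were left out, Gm4027 ran from -0.06 to 0.07 and Gm7104 from -0.34 to 0.03 in mutant against plain SCNT embryos, and Gm1995 from -0.02 to 0.07 and Gm5039 from -0.28 to 0.04 in SCNT against IVF 1-cell embryos. The 8 genes called higher in Kdm4d than in plain SCNT embryos were 6 to 8 under every alternative. Members called lower in mutant than in plain SCNT embryos numbered 4, with 2 when no filter was used, 0 in a fit to only the groups compared and 1 to 5 when single libraries were left out. Members called higher in Kdm4d than in mutant embryos numbered 8, and 0 in a fit to only the groups compared. The counts of members higher with Kdm4d include Gm4027, Gm2022 and Gm7104, which the filter favoured and which are descriptions. In SCNT 2-cell against SCNT 1-cell embryos 1 member, Gm7104, was called lower with quantile normalization and 1 with group weights, in place of 0. In SCNT against IVF 1-cell embryos 3 were called higher in a fit to only the groups compared and 2 with group weights, in place of 0. The calls over all genes rose as well. From 180 higher and 131 lower they went to 1611 and 1167 in the first of these fits and to 2546 and 1530 in the second. The causes of these changes were not tested. A fit to only the groups compared has fewer libraries and takes the spread from those groups alone, and group weights let the spread differ between groups. The main fit gives each gene 1 spread for all groups, so the SE of Gm8300 was 0.43 in each of the 5 comparisons. Its libraries were at 0.215 and 2.82 FPKM with the mutant and at 1.90 and 1.54 in SCNT 1-cell embryos. Libraries that share a replicate number did not deviate together: over 21 pairs of groups the correlation was -0.155 to 0.191, over 0.1 in 1 pair. With a replicate block, the counts were 8 higher, 4 lower, 8 higher, 4 higher and 0 in the 5 comparisons in the order of the text, as without it. With 2 libraries a group, leaving out 1 leaves a lone sample that is assumed to vary like the other groups. Values under about 0.0254 FPKM in Gm4027 lie near or below 1 read.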
